A study of Mus musculus with 3 samples.

Results

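The Trim genes encode the tripartite motif proteins, a large family in which most members are ubiquitin ligases. They were taken as every gene whose symbol begins with Trim and a number, and a gene was kept if it reached a level of at least 1 CPM (its share of the scaled library, in counts per 1000000 reads) in at least 1 sample. Of the 17121 genes in the table, 64 bore such a symbol, and 41 of those 64 reached 1 CPM. The RNA came from CD8+ T cells, the killer lymphocytes, isolated from the spleen and lymph nodes of wild-type (WT) mice and cultured for 3 days. The young TCR sample came from WT mice aged 6 weeks, and its cells received antibodies against CD3 and CD28 (α-CD3/28) at 1 µg/ml, which stimulate the T cell receptor and its co-receptor. The young TRM sample came from mice of the same age and genotype and received the same antibodies with IL-15 at 20 ng/ml and TGFβ at 5 ng/ml, a setting named after tissue-resident memory T cells. The aged TRM sample came from WT mice aged 18 months and received the antibodies and both cytokines at the same doses. Each group was 1 sample, with 2 numbered columns of values in the table, which were treated as repeat measurements of that sample and not as replicates. No p-value was therefore computed, and no difference below has a check across mice. The number of mice behind a sample, and whether mice were pooled, is not stated in the labels.

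Most TRIM proteins, though not all, carry a RING finger, which recruits a ubiquitin-conjugating enzyme. B-box domains follow, then a coiled coil through which the proteins pair, and usually a C-terminal domain that picks the target. In many members this last domain is the PRY-SPRY domain, which binds proteins such as viral capsids. Many Trim genes are switched on by interferons, and their products restrict viruses or tune the sensing of foreign nucleic acids. Interferon signals reach genes through 2 DNA elements, the ISRE and the GAS element, which are bound by transcription factors that interferon receptors activate. The mouse carries an expanded group of these genes side by side on chromosome 7, with Trim5-like, Trim12, Trim30 and Trim34 copies. Other members act in the nucleus: Trim28 silences transposons and zinc finger target genes, and Trim33 works beside the SMAD proteins of the TGF-beta pathway.

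The summed columns held 39915663 reads in young TCR, 36021887 in young TRM and 40385477 in aged TRM. The labelled cell type was checked by 7 T cell markers found in the table, which summed to 2831, 4258 and 3907 CPM in young TCR, young TRM and aged TRM, with Cd8a at 747, 1822 and 1632 CPM. B cell markers were low, at a sum of 48 CPM, 17.5 CPM and 24 CPM over 8 genes. In a bulk sample, a transcript that falls because fewer cells carry it cannot be told apart from a transcript that falls in every cell.

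A match to the ISRE core, GAAA, any 2 bases, then GAAA on either strand, stood close to the start of most cluster genes, and the matched stretches are shown because the cluster holds both genes that rose in young TRM. They come from RefSeq windows of assembly GRCm38.p6 that run from 250 bases before to 50 bases after an annotated start. A gene can have several such starts, and a start can lie inside the gene's listed span. Each stretch is 30 bases long and is written 5′ to 3′ on the gene's own strand, with the matched bases in capitals. Trim21 holds 2 overlapping matches, which begin at bases 14 and 20 of the gene, and only the first is in capitals. For Trim30c, which had no such match in its window, the stretch that aligns with the upstream Trim30a match is shown with the aligned bases in capitals. All genes shown lie on the minus strand except Trim34a.
Trim30a, downstream start (chr7:104446104-104446133): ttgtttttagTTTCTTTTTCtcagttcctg
Trim30a, upstream start (chr7:104465210-104465239): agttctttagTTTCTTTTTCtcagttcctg
Trim30d (chr7:104507871-104507900): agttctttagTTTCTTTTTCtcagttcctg
Trim30c, no match (chr7:104400896-104400925): agttctgtggTTCCTTTTTCtcagttccac
Trim12a (chr7:104315466-104315495): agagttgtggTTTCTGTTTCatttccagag
Trim12c (chr7:104353359-104353388): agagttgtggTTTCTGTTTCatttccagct
Trim5 (chr7:104288136-104288165): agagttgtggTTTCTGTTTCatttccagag
Trim34a (chr7:104244457-104244486): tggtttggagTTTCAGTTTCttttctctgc
Trim21 (chr7:102565450-102565479): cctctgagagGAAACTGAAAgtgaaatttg

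The upstream Trim30a stretch and the Trim30d stretch are the same in all 30 bases. The Trim30c stretch shared 25 of its 30 bases with the upstream Trim30a stretch, and the next best ungapped placement in the Trim30c window shared 16. Of the 5 differences, 1 fell in the core, T13C, with positions counted from 1 at the 5′ end of the stretch and the Trim30a base written first. A core with at most 1 mismatch occurs in 35.4% of all 32851 windows, so such a near match is common. The Trim30c window held a GAS match (TTCNNNGAA, which reads alike on both strands) that begins 62 bases before the start used for that window. This start lies inside the gene's listed span (chr7:104379117-104400852), and so does the GAS match. The distance thus depends on which start is used. It is shown because Trim30c had the largest ratios of the family and was the sole cluster gene of at least 1 CPM with this match.
Trim30c, GAS match (chr7:104400821-104400850): cgtgactaaaTTCTTAGAAgcttagtgact

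Levels were compared between genes by the TPM values deposited by the authors, which divide by transcript length. Trim14, an adaptor of antiviral signalling, had the highest mean over the samples, with 248 TPM in young TCR, 212 TPM in young TRM and 191 TPM in aged TRM. Trim28, the co-repressor also known as KAP1, followed with 198, 175 and 184 TPM. Trim59, a membrane-anchored member, had 152, 157 and 113 TPM. Trim30a took the fourth place by its mean of 95.7 TPM and varied most among the 10 genes of highest mean, with 58.5 TPM in young TCR, 145 TPM in young TRM and 83.6 TPM in aged TRM. Then came Trim27 (mean 83.8 TPM), Trim12a (72.8 TPM), Trim35 (70.3 TPM), Trim12c (60.6 TPM), Trim8 (53.3 TPM) and Trim44 (44.7 TPM). Trim12a and Trim35 are neighbours in this order only as means: in young TRM Trim12a stood higher, at 93.5 against 66.1 TPM, and in aged TRM lower, at 58.3 against 82.6 TPM. In young TCR they were close, at 66.7 and 62.2 TPM. All 64 listed Trim genes together took 0.234% of reads in young TCR (95% Clopper-Pearson interval 0.232% to 0.235%), 0.262% in young TRM (0.26% to 0.263%) and 0.222% in aged TRM (0.221% to 0.224%), where the intervals cover counting error only.

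**Figure D1:**
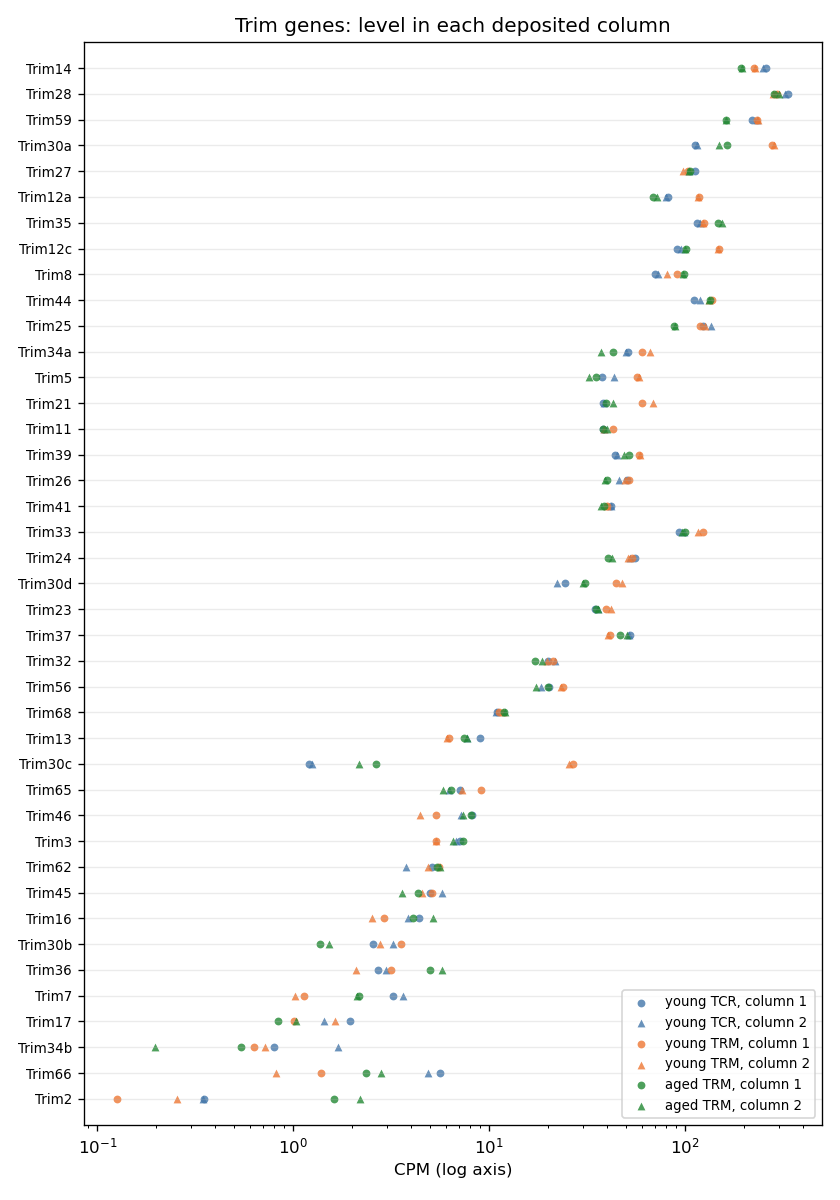
CPM of the 41 Trim genes of at least 1 CPM on a log axis, 1 row per gene, ordered by mean TPM; colour is the sample and the symbol is the numbered column. Most rows are tight, while Trim30c runs from 1.2 CPM in young TCR to 26.7 CPM in young TRM.

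The columns of a sample lay close together for well-expressed members. Over the 26 Trim genes of at least 10 CPM in all 3 samples, the larger column was a median of 1.05 times the smaller, and the widest gap was 1.15-fold, for Trim34a. Members of few reads varied more: Trim34b had 0.539 and 0.196 CPM in the columns of aged TRM. The gene just inside the threshold was Trim34b, at a highest level of 1.23 CPM, and the gene just outside was Trim43b, at 0.795 CPM.

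Young TRM was compared with young TCR to ask what IL-15 and TGFβ add to receptor stimulation. A gene was called if its ratio of CPM + 1 was at least 2-fold (a log2 ratio beyond 1 in either direction) and its read ratio had a 95% interval, by Clopper-Pearson, that excluded 1. Of the 40 Trim genes tested, those of at least 1 CPM in either library, 2 rose (Trim30c and Trim30a) and 2 fell (Trim66 and Trim7). Over all 11588 genes tested, 4.18% rose and 3.6% fell by this rule, so the family's counts are near the background. The median log2 ratio was 0.08 over the Trim genes and 0.02 over all genes. Both columns of young TRM were above both of young TCR for 18 Trim genes and below for 12, against 39.2% and 39.7% of all genes.

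Aged TRM was then compared with young TRM to ask what differs with age under the same stimulus. Of 40 Trim genes tested, 1 rose (Trim2) and 1 fell (Trim30c), where 2.25% and 1.15% of all 11575 genes tested did. The median log2 ratio was -0.20 over the Trim genes and -0.01 over all genes, and 25 of the 40 were below 0. The columns of aged TRM were above those of young TRM without overlap for 13 Trim genes and below for 22, against 35.9% and 38% of all genes. Both comparisons use the young TRM sample, so values that are high there push their ratios in opposite directions, and the ratios are given side by side only.

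**Figure D2:**
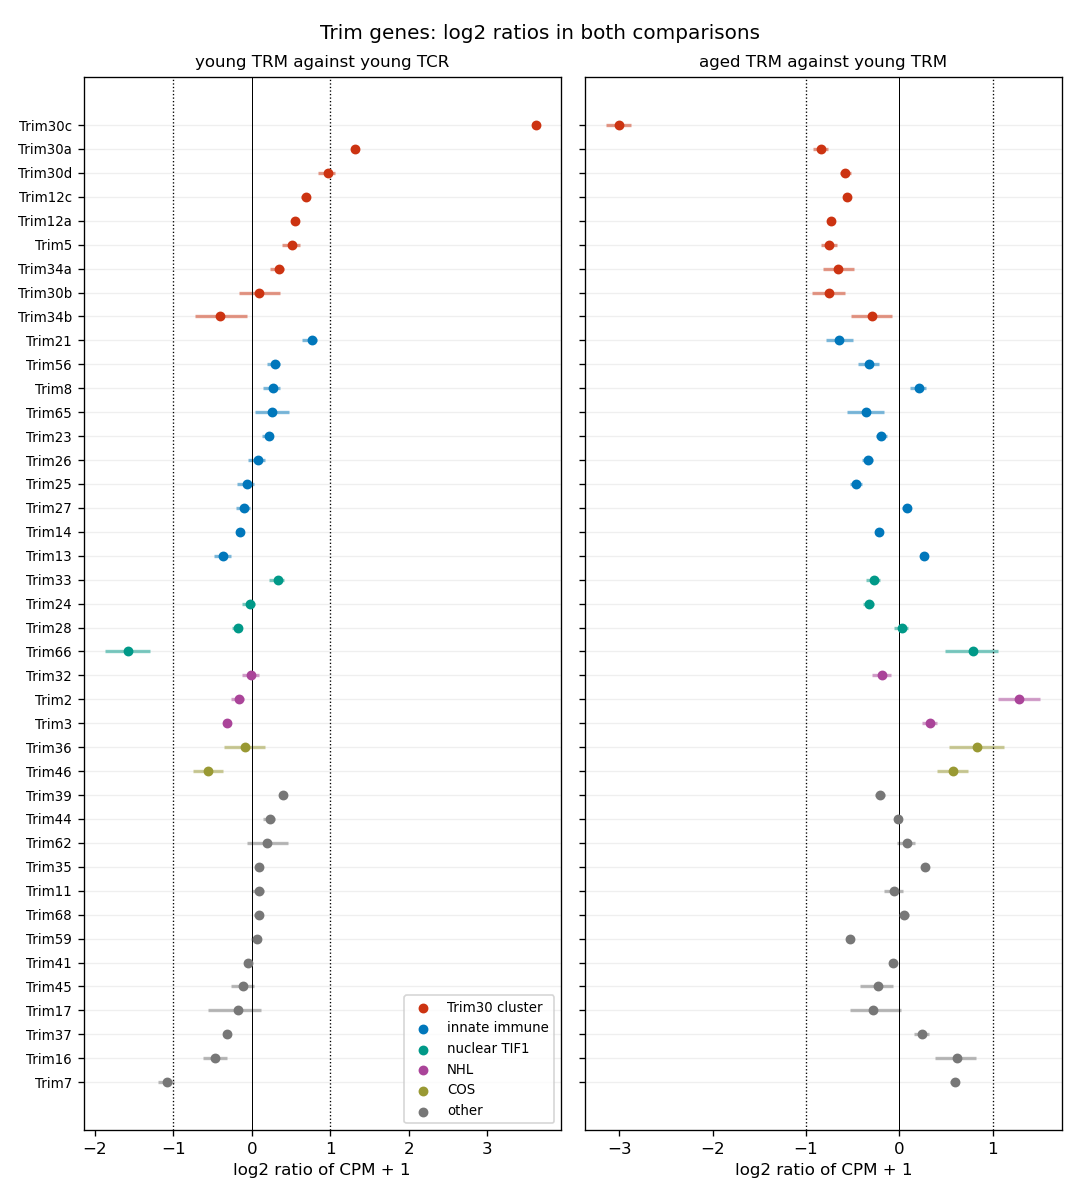
Log2 ratios of CPM + 1 for the 41 Trim genes, grouped by role, with young TRM against young TCR on the left and aged TRM against young TRM on the right; a point is the summed sample, a bar spans the 4 pairings of columns, and dotted lines mark 2-fold. Trim30c stands at 3.62 and -3.00, and most other genes lie within 1 of 0.

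The Trim30 cluster held the largest ratio of the family in both comparisons, that of Trim30c. It was taken as a list of 12 neighbouring genes on chromosome 7, of which 10 were in the table and 9 reached 1 CPM (Trim6 did not, at 0.444, 0.341 and 0.689 CPM in young TCR, young TRM and aged TRM). The 10 together summed to 404 CPM in young TCR, 747 CPM in young TRM and 438 CPM in aged TRM. Young TRM was thus the high sample, and the sum in aged TRM was close to that in young TCR. Trim30a was the largest part of the sum in every sample. Singly, Trim12a, Trim5, Trim34a, Trim30b and Trim34b were lowest in aged TRM. Of the 9 genes, 2 rose in young TRM and 0 fell (4.18% and 3.6% of all genes), with a median log2 ratio of 0.55 and 8 above 0. In aged TRM against young TRM 8 were tested, 0 rose and 1 fell (2.25% and 1.15% of all genes), the median was -0.74, and all 8 had both aged columns below both young ones, as 38% of all genes did. The 54 Trim genes listed outside the cluster summed to 1895 CPM, 1930 CPM and 1768 CPM, with medians of -0.03 over 31 tested in young TRM and -0.04 over 32 tested in aged TRM, and none of them rose in young TRM. These figures describe 1 library per group and are no test of the cluster against other genes.

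Trim30c, a little-studied member of the Trim30 group (gene ID 434219, chr7:104379117-104400852), had 1.2 and 1.24 CPM in the columns of young TCR, 26.7 and 25.6 CPM in young TRM, and 2.65 and 2.15 CPM in aged TRM. Young TRM was high in both columns, with no overlap with either other sample. On 49, 924 and 98 reads in all, Trim30c rose 21.7-fold in young TRM (interval 16.3 to 29.5; log2 ratio of CPM + 1, 3.62) and was 10.9-fold lower in aged TRM (8.83 to 13.5; log2 ratio -3.00). Its coding transcripts were short of near-identical copies: 0.66% of their 50-base stretches, and none of 100 bases, occurred in another gene's transcripts in the GENCODE M21 set. In TPM, Trim30c stayed a weakly expressed member, at 0.865, 12.9 and 1.47 TPM, below Trim30a in every sample.

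Trim30a, which restrains Toll-like receptor signalling in macrophages by removing TAB2 and TAB3 (gene ID 20128, chr7:104409025-104465193), had 112 and 115 CPM in young TCR, 277 and 284 CPM in young TRM, and 163 and 149 CPM in aged TRM. The samples did not overlap, with aged TRM between the young ones. Trim30a rose 2.5-fold in young TRM (2.41 to 2.59; log2 1.31), and its level in aged TRM was 1.8-fold lower than in young TRM (1.74 to 1.85; log2 -0.84), short of the threshold. Trim30d, its neighbour in sequence and place (chr7:104470014-104507853), had 24.3 and 22.2 CPM in young TCR, 44.4 and 47.5 CPM in young TRM, and 30.8 and 30.2 CPM in aged TRM. Its order of samples was that of Trim30a. Its log2 ratio in young TRM was 0.98, just under the threshold, and -0.58 in aged TRM. Trim30b (chr7:104355398-104358646) had 2.54 and 3.23 CPM, 3.53 and 2.77 CPM, and 1.37 and 1.52 CPM in young TCR, young TRM and aged TRM. The young samples overlapped, and the aged one was below both, at a log2 ratio of -0.75 against young TRM. An annotated gene, Gm38525, overlaps Trim30b and had 1.16, 1.82 and 1.16 CPM, and the labels do not say how reads were divided between them.

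Trim12a, Trim12c and Trim5 are the mouse relatives of the human restriction factor TRIM5, which binds retroviral capsids. Trim12c (chr7:104338754-104353358) had 90.7 and 95.3 CPM in young TCR, 149 and 148 CPM in young TRM, and 101 and 99.5 CPM in aged TRM. Trim12a (chr7:104299893-104315558) had 81.5 and 80.3 CPM, 118 and 117 CPM, and 68.8 and 71.7 CPM in the same order. Trim5 (chr7:104263386-104288254) had 37.8 and 43.1 CPM, 56.5 and 58.5 CPM, and 35.1 and 32.3 CPM. In all 3 genes young TRM was the high sample with no overlap of columns, and for Trim12a and Trim5 aged TRM was the lowest. Their log2 ratios were 0.69, 0.55 and 0.52 in young TRM and -0.56, -0.73 and -0.76 in aged TRM for Trim12c, Trim12a and Trim5, none past the threshold. Trim34a (chr7:104244448-104262244), another antiviral member, had 51.3 and 49.8 CPM, 60.3 and 66.2 CPM, and 42.7 and 37.2 CPM, with ratios of 0.34 and -0.66. Its near copy Trim34b reached 1.23, 0.681 and 0.369 CPM and was the cluster gene with a ratio below 0 in young TRM, at -0.41. These genes share sequence: 56.8% of the 50-base stretches of Trim34b and 39.8% of those of Trim34a occur in the other, and 36.3% of those of Trim5, 33% of Trim12c and 20.8% of Trim12a occur in some other gene. Their separate values depend on how such reads were assigned, which is not given, so they are uncertain as single genes.

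**Figure D3:**
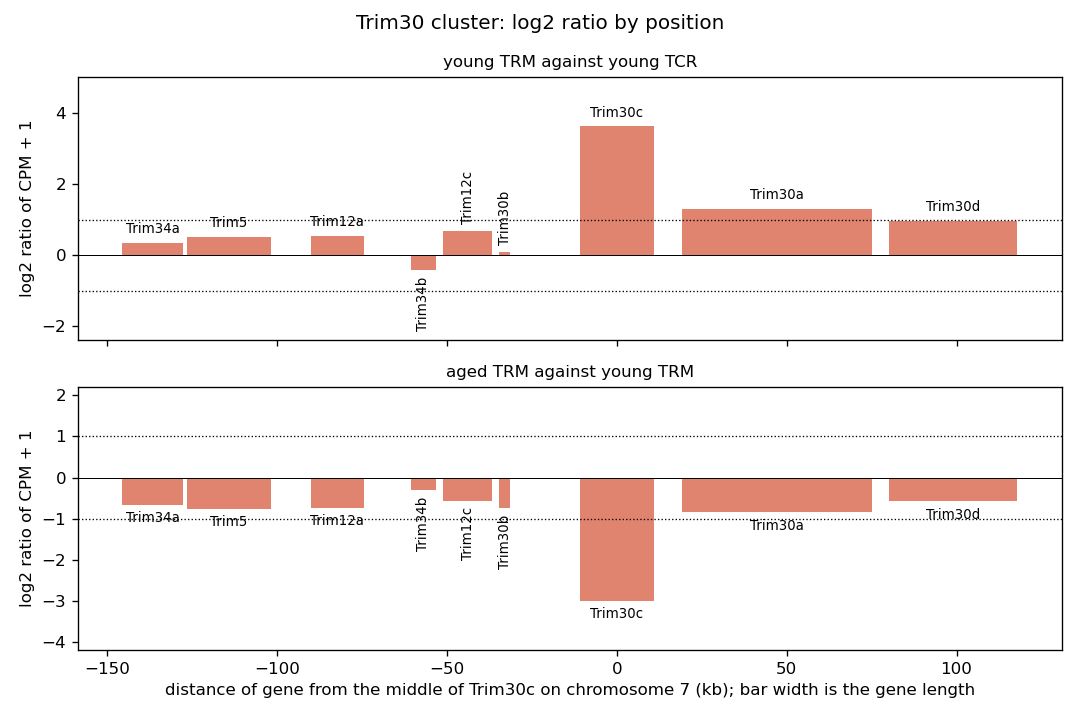
The 9 cluster genes of at least 1 CPM placed by distance in kb from the middle of Trim30c, with bar width as gene length and bar height as the log2 ratio of CPM + 1; dotted lines mark 2-fold. In the upper panel (young TRM against young TCR) 8 bars point up, with Trim30c at 3.62, and in the lower panel (aged TRM against young TRM) all 9 point down, Trim34b included although it was not tested there.

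The ISRE core match was more frequent among Trim genes than among all genes. RefSeq windows were held for 31 of the 41 Trim genes of at least 1 CPM and not used for the other 10. Of these 31, 9 held a match (29%), against 361 of 9513 genes of at least 1 CPM with a window (3.8%) and 3.44% of all windows. In the cluster 6 of 9 held one: Trim30a, Trim30d, Trim12a, Trim12c, Trim5 and Trim34a, whose stretches are printed above and are partly copies of each other. Outside it the holders were Trim21, Trim26 and Trim2. A gene counted as a holder if any of its windows matched, so genes with several windows had more chances. The Trim2 match lay in 1 of its 5 windows. Trim30c, Trim30b and Trim34b held none. The GAS match, by contrast, was found for 3 of 31 Trim genes, namely Trim30c, Trim45 and Trim46, close to the 8.29% of genes of at least 1 CPM. A match is a run of letters and not a measured binding site.

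In young TRM against young TCR, the 8 tested Trim genes with an ISRE core match had log2 ratios from 0.07 (Trim26) to 1.31 (Trim30a), all above 0, with a median of 0.62. The 22 without a match had a median of -0.04 and ran from -1.58 (Trim66) to 3.62 (Trim30c). Over all genes tested, the 352 with a match had a median of 0.11 and the 9029 without had 0.01. In aged TRM against young TRM, 8 of 9 Trim genes with a match were below 0, with a median of -0.65, and the exception was Trim2 at 1.28. The 21 without a match had a median of -0.07, and the medians over all genes were -0.11 with and 0.00 without a match. The gene with the largest ratio in both comparisons, Trim30c, was thus among those without the exact core. Outside the cluster, 2 tested Trim genes held a match in young TRM (0.07 and 0.76), and 19 without one had a median of -0.05. In aged TRM 3 held one (-0.65 to 1.28, median -0.34), and 19 without had a median of -0.02. The other holders are cluster neighbours, so the match and the place in the cluster were not told apart.

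**Figure D4:**
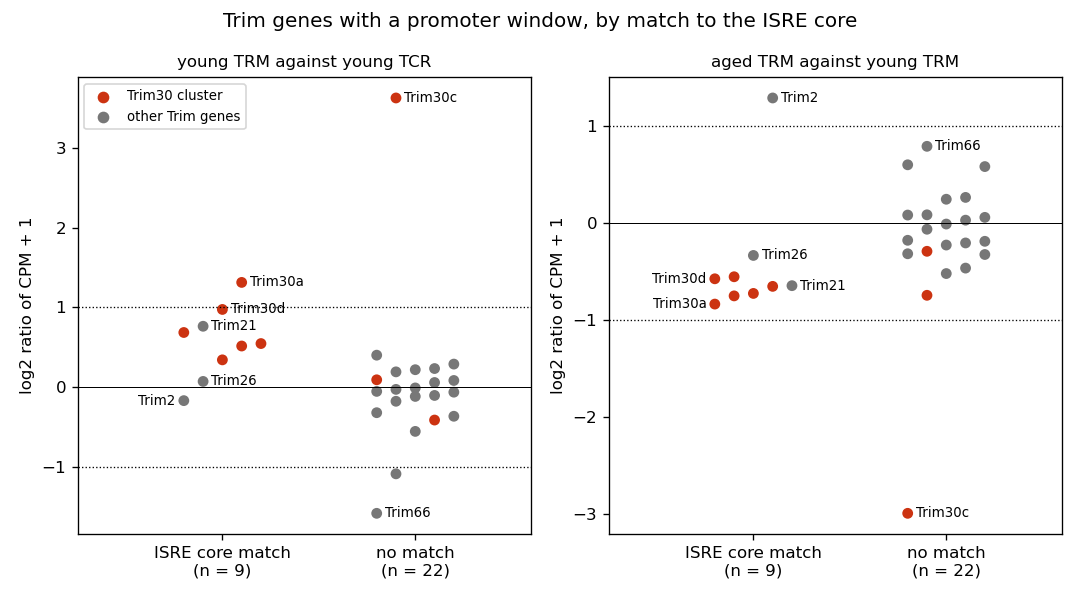
Log2 ratios of CPM + 1 for the 31 Trim genes with a promoter window, split by the ISRE core match, with cluster genes in red; the left panel is young TRM against young TCR and the right panel aged TRM against young TRM, on different vertical scales. Trim2 on the left and Trim34b on the right were not tested there and are plotted for completeness. Genes with a match lie between -0.17 and 1.31 on the left, and Trim30c lies apart among those without.

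The list of Trim genes known from innate immune signalling leaves out the Trim30 cluster, and none of its genes passed the threshold in either comparison. Of its 13 genes 10 reached 1 CPM, with medians of 0.15 in young TRM and -0.27 in aged TRM. Over all genes 4.18% rose and 3.6% fell in young TRM, and 2.25% and 1.15% in aged TRM. No call among 10 genes is near that background. Trim21, the cytosolic antibody receptor (chr7:102557920-102565482), had 38.1 and 38.6 CPM in young TCR, 60.6 and 68.8 CPM in young TRM, and 39.5 and 42.7 CPM in aged TRM. Its order of samples matched that of the cluster sum, with ratios of 0.76 and -0.65. It was the highest of this list in the first comparison and the lowest in the second. Trim25, the ligase that activates the RNA sensor RIG-I, had 124 and 135 CPM, 119 and 126 CPM, and 87.4 and 89.3 CPM, so that its young samples overlapped and the aged sample was lower (-0.06 and -0.47). Trim14, the gene of highest TPM, had 252, 227 and 195 CPM and ratios of -0.15 and -0.22. Trim56, which ubiquitinates the sensor cGAS, had 19.1, 23.6 and 18.7 CPM, and Trim26 48, 50.6 and 39.8 CPM. Trim65, a ligase for the RNA sensor MDA5, had 6.61, 8.12 and 6.12 CPM, and Trim23, which is also a GTPase of the ARF family, had 35, 41 and 35.7 CPM. Trim8, Trim13 and Trim27 were the 3 with both aged columns above both of young TRM, Trim27 at 108, 100 and 106 CPM (-0.10 and 0.08), Trim8 at 71, 85.5 and 98.7 CPM (0.26 and 0.20) and Trim13 at 8.24, 6.19 and 7.6 CPM (-0.36 and 0.26). Trim31, Trim38 and Trim40 stayed under 1 CPM.

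Among the nuclear members, Trim28, Trim33 and Trim24 did not pass the threshold in either comparison, and Trim66 fell in young TRM. Trim28 (chr7:13024152-13031032) had 337 and 322 CPM in young TCR, 296 and 281 CPM in young TRM, and 285 and 301 CPM in aged TRM. Young TCR stood above the TRM samples, which overlapped, and the ratios were -0.17 and 0.02. Trim33 (chr3:103279293-103358770), the partner of SMAD2 and SMAD3, had 92.9 and 99.2 CPM, 124 and 116 CPM, and 100 and 96.8 CPM. It was highest in young TRM without overlap, at ratios of 0.33 and -0.28. Trim24, a co-regulator of nuclear receptors, had 53.4, 52.4 and 41.5 CPM (-0.03 and -0.33). Trim66 (chr7:109449001-109516759), best known from the testis, had 5.63 and 4.87 CPM in young TCR, 1.39 and 0.82 CPM in young TRM, and 2.35 and 2.79 CPM in aged TRM. The samples did not overlap. On 211 and 38 reads Trim66 fell 4.83-fold in young TRM (3.4 to 7.01; log2 ratio -1.58), and it stood 2.39-fold higher in aged than in young TRM (log2 0.79, not called). The call in young TRM was lost with a pseudocount of 5 (-0.75) and in the authors' TPM (-0.78).

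The genes that act beside Trim28 and Trim33 were read from 2 lists. Of 6 partners of Trim28 in heterochromatin (Setdb1, Cbx1, Cbx3, Cbx5, Chd3 and Atf7ip) none rose or fell in either comparison. Over all genes 4.18% rose and 3.6% fell in young TRM, and 2.25% and 1.15% in aged TRM, so no call among 6 is near that background. Of 6 genes of the SMAD pathway, 3 rose in young TRM: Skil, a SMAD co-repressor, from 52 to 346 CPM, Smad7, the inhibitory SMAD, from 15.7 to 68.9 CPM, and the receptor Tgfbr1 from 42.1 to 158 CPM. In that comparison 5 of the 6 were above 0 and 1 was below. The lower one had a log2 ratio of -0.89, with both young TRM columns below both of young TCR, and was not called. Smad4, which TRIM33 can ubiquitinate, had 72.9, 87.9 and 73.8 CPM. None of the 6 was called in aged TRM, where Skil had 298 CPM, Smad7 56 CPM and Tgfbr1 90.4 CPM.

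Trim2, Trim3 and Trim32 carry NHL repeats in place of the PRY-SPRY domain, and the fourth of this group, Trim71, was under 1 CPM. Trim2 (chr3:84160439-84308352), a ligase studied in neurons, had 0.349 and 0.348 CPM in young TCR, 0.126 and 0.256 CPM in young TRM, and 1.62 and 2.2 CPM in aged TRM. The aged sample was above both others in each column. Trim2 rose in aged TRM on 78 reads against 7, a ratio of 9.66 whose interval ran from 4.47 to 24.8 (log2 ratio of CPM + 1, 1.28), and the call was lost with a pseudocount of 5 (0.41). Trim3 had 6.91, 5.36 and 6.96 CPM (-0.31 and 0.32), and Trim32, a ligase mutated in a muscular dystrophy, had 20.5, 20.4 and 17.9 CPM (-0.01 and -0.18). Of the members with a COS box or from muscle, only Trim46 and Trim36 reached 1 CPM of 7 listed. Trim46 had 7.62, 4.88 and 7.77 CPM (-0.55 and 0.58), and Trim36 had 2.81, 2.58 and 5.39 CPM (-0.09 and 0.83), with the aged sample above both young ones.

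A further 26 Trim genes stood on none of these lists, and 13 of them reached 1 CPM. Trim7, a ligase that binds glycogenin (chr11:48826138-48851192), had 3.24 and 3.62 CPM in young TCR, 1.13 and 1.03 CPM in young TRM, and 2.16 and 2.1 CPM in aged TRM. The samples did not overlap, and their order was that of Trim66. On 138 and 38 reads Trim7 fell 3.16-fold in young TRM (2.19 to 4.65; log2 ratio -1.08). This call was lost in the first numbered columns alone (-0.99), with a pseudocount of 5 (-0.47) and in TPM (-0.86). It was also lost when every pairing of columns had to pass (-1.19 to -0.99). Trim59 had 219 and 234 CPM, 232 and 235 CPM, and 163 and 161 CPM, overlapping in the young samples and lower in the aged one (0.06 and -0.53). Trim35 had 116, 125 and 151 CPM (0.10 and 0.27), with the aged sample the highest. Trim37, a ligase for histone H2A, had 51.5, 41.1 and 48.8 CPM (-0.32 and 0.24), and Trim39 had 44, 58.5 and 50.4 CPM (0.40 and -0.21). Trim44 had 114, 134 and 133 CPM, Trim11 38, 40.7 and 39 CPM, Trim41 41.5, 40 and 38.1 CPM, and Trim68 10.9, 11.6 and 12.1 CPM. The weaker ones were Trim16 (4.09, 2.7 and 4.65 CPM), Trim45 (5.3, 4.83 and 3.96 CPM), Trim62 (4.42, 5.19 and 5.53 CPM) and Trim17 (1.68, 1.36 and 0.935 CPM). None of these was called.

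The other 23 Trim genes stayed under 1 CPM in every sample and were not tested. Besides Trim6, Trim31, Trim38, Trim40, Trim71 and Trim43b, they were Trim9, Trim10, Trim15, Trim29, Trim42, Trim43a, Trim43c, Trim47, Trim54, Trim55, Trim58, Trim63, Trim67, Trim69, Trim72, Trim75 and Trim80. Each had at least 1 read in some sample, and the highest counts were 28 reads, for Trim43b in young TRM and for Trim6 in aged TRM. Members of the family that carry other names were read apart, as a list of 6 genes of which 4 reached 1 CPM. In young TRM 2 of the 4 were above 0 and 2 below (median log2 ratio -0.18), and in aged TRM 3 were above 0 (median 0.15). Pml, the organiser of nuclear bodies and itself interferon-inducible, had 121, 217 and 144 CPM (0.83 and -0.59), in the sample order of the cluster sum. It was not called, and it was the 1 gene of the 4 below 0 in aged TRM. Mid2, a relative of the microtubule-binding ligase Mid1, fell in young TRM and rose in aged TRM, at 2.05, 0.397 and 4.48 CPM (-1.12 and 1.97).

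Summed, the interferon response genes, the pathway that induces many Trim genes, had the sample order of the Trim30 cluster sum, though not of each cluster gene. Of 35 listed, 33 were tested, 16 rose in young TRM and 0 fell, against 4.18% and 3.6% of all genes, with a median log2 ratio of 0.99. In aged TRM against young TRM 0 rose and 15 fell, against 2.25% and 1.15% of all genes, the median was -0.82, and 33 of 33 were below 0. Summed, they had 2926 CPM in young TCR, 7372 CPM in young TRM and 4242 CPM in aged TRM. Ifit3, a translation inhibitor, went from 4.81 to 87.7 CPM and stood at 12.1 CPM in aged TRM, ratios of 3.93 and -2.76, close to those of Trim30c. Its near copy Ifit3b had 0.789, 22.7 and 3.64 CPM (3.73 and -2.35), Isg20, an exonuclease, 3.58, 91.9 and 28.8 CPM (4.34 and -1.64), and Rtp4 3.08, 11.8 and 1.5 CPM (1.65 and -2.36). Of 25 of these genes with a window, 11 (44%) held an ISRE core match and 10 (40%) a GAS match. The list was chosen with earlier results of these samples known, so its direction is not independent evidence, and its part in the values of the cluster was not tested.

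Around that pathway, Ifngr2, a chain of the interferon gamma receptor, rose from 18 to 90.5 CPM in young TRM and had 47.1 CPM in aged TRM. Socs1, an inhibitor of interferon signalling, rose from 73.9 to 155 CPM and had 91.6 CPM in aged TRM. They were the 2 called of 10 receptor, ligand and kinase genes in that comparison, where 4.18% of all genes rose and 3.6% fell. In aged TRM the call of this list was Ifng, the ligand, which rose from 82.1 CPM in young TRM to 478 CPM. Its part in the values of the cluster was not tested. Of 16 nucleic acid sensing genes, Tlr7 alone was called, rising from 11.6 to 35.7 CPM in young TRM and falling to 14.2 CPM in aged TRM. Tab2 and Tab3, the targets of the Trim30a protein, were not called, with 141, 187 and 163 CPM and 23, 30.4 and 26.5 CPM. Among 11 tested ubiquitin-conjugating enzymes, 1 was called: Ube2l6, which conjugates ISG15, rose from 11.1 to 27.9 CPM in young TRM and had 19.3 CPM in aged TRM. In aged TRM 2.25% of all genes rose and 1.15% fell, and a single call in lists of this size is near the background of either comparison.

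Markers of other cells moved with some of these results. The 8 B cell markers had their highest sum in young TCR and their lowest in young TRM, as Trim66 and Trim7 did. Of 7 tested in young TRM 5 fell (3.6% of all genes), among them Ms4a1 from 7.4 to 0.426 CPM. In aged TRM 3 of 6 rose (2.25% of all genes), with none of the 8 at 0. Foxp3, the regulator of regulatory T cells, had 1.95, 33.6 and 3.71 CPM, ratios of 3.55 and -2.87, which is the sample order of Trim30c. Of the other markers on the CD4 list, Cd4 had 10.5, 12.4 and 11.6 CPM, the same order with ratios of 0.22 and -0.08, Zbtb7b 18.1, 8.03 and 14.3 CPM, and Cd40lg 0.37, 0.255 and 0.541 CPM, for a list sum of 31, 54.2 and 30.1 CPM. The 8 myeloid markers summed to 66.4, 142 and 115 CPM, of which Ctss and Mpeg1 made up most in young TRM, while Csf1r had at most 0.227 CPM and Adgre1 was at 0 in young TRM. Of 5 myeloid markers tested in young TRM against young TCR, 2 rose and 1 fell (4.18% and 3.6% of all genes). Their median log2 ratio was -0.15. The 8 markers of NK and innate lymphoid cells summed to 388, 294 and 389 CPM, a sum in which Eomes fell from 217 to 93.5 CPM in young TRM. Against 4.18% of all genes, 5 of the 8 rose there (Ncr1, Klrb1c, Fcer1g, Tyrobp and Kit), and the median log2 ratio was 1.18. None of the 8 was called in aged TRM. The part of such cells in the Trim values was not tested.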

How the data were processed

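Per the labels, total RNA was sequenced from standard Illumina libraries. Bowtie and the builds GRCm38 and mm10 are listed in the submitters' processing notes. The counting program, the annotation and the handling of reads that fit several genes were not given in the sources used here. The deposited table held 2 numbered columns per sample with estimated counts (called read counts in the file headers but not always whole) and TPM values, both made by the authors. A further 24 value columns (FPKM, normalised counts and averages) were not used here.

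For each sample, both columns of estimated counts were rounded to whole reads and added (column totals 16084855 to 20245228). Library scaling used TMM (1.02, 0.978 and 1.01 for young TCR, young TRM and aged TRM), computed with edgeR 4.0.16 under R 4.3.3. Ratios of CPM with a pseudocount of 1 and Clopper-Pearson intervals were computed over all genes in Python 3.11.15 with scipy 1.17.1. A fold is the ratio of scaled CPM, without the pseudocount. Reads are not independent molecules, so the intervals cover counting error only. Gene positions and promoter windows came from RefSeq tables of GRCm38.p6, in which 17071 gene IDs and all 64 Trim IDs were found. Shared stretches were taken from each member's protein-coding transcripts in GENCODE M21 and sought in all M21 transcripts of other genes.

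The members, gene lists, motifs and tests were chosen with earlier results of these data known. Genes were named if called, among the 10 of highest TPM, among the 5 largest ratios in each direction of at least 10 CPM, or on a Trim list; all other measured members are given by level. Called partner genes and up to 4 members of each interferon and sensing list were named, and Socs1, Smad4, Tab2, Tab3, Pml and Zbtb7b after their values were seen. Alternatives were other scalings, pseudocounts, filters, TPM, each column alone and every pairing of columns.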

Additional observations from a re-analysis of the deposited data

How the results depend on the processing

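With other scalings (library totals or median-of-ratios) or a pseudocount of 0.5, no call of a Trim gene changed. In young TRM against young TCR the count of risen Trim genes was 2 in every setting except the second columns alone, where Trim30d made it 3. The count of fallen genes, 2, became 0 with a pseudocount of 5, with a filter of 10 CPM and in TPM, and 1 with the first columns alone or every pairing of columns. The median log2 ratio, 0.08, became 0.22 with the 10 CPM filter, -0.015 with no filter, 0.028 with library totals, 0.094 with the first columns and 0.038 with the second. In aged TRM the fallen count was 1 throughout. The risen count, 1, became 0 with a pseudocount of 5, at 10 CPM and in TPM, and 3 with the second columns alone. The median, -0.20, became -0.14 with a pseudocount of 5, -0.28 at 10 CPM, -0.010 with no filter, -0.14 in TPM and -0.21 with the second columns. Trim30c kept its call in every setting tried, and Trim30a its call in young TRM. The cause of the other changes was not tested beyond what each setting removes: Trim66, Trim7 and Trim2 rest on few reads and never reach 10 CPM. No replicate could be left out and no paired analysis was possible because each group is 1 sample. Depth limits the members under 1 CPM, for which no ratio is given.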
